A study of Drosophila melanogaster with 4 samples.

Results

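The regions described here are the stretches of the Drosophila melanogaster X chromosome that were called as enriched in trimethylation of histone H3 at lysine 4 (H3K4me3) in late embryos. They were taken from the authors' list for both replicates together, the combined list, as its rows on X that are not typed as depletion. These are 952 of 5539 enriched regions, or 17.2%. The choice used position on the chromosome and the row type alone, not width, score or replicate support. The study profiled whole wild-type embryos of the Oregon-R strain (Oregon-R-modENCODE), staged at 14 to 16 h, by chromatin immunoprecipitation followed by sequencing (ChIP-seq). Its 4 samples are 2 H3K4me3 ChIP samples, made with lot 2 of a single antibody, and 2 Input samples of chromatin that was not immunoprecipitated. Each ChIP replicate has its own list, with 1486 enriched regions on X in replicate 1 and 867 in replicate 2. The Input samples enter only through the authors' calls. The labels give neither the sex of the embryos nor whether the replicates came from separate collections, so the spread between replicates may be technical. In whole embryos, a mark carried by fewer cells and a weaker mark in each cell cannot be told apart.

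As background, H3K4me3 is placed in flies largely by the Set1 methyltransferase and lies around the start sites of active genes, where it forms peaks of a few kilobases. The fly X is present in a pair in females and alone in males, and in males the dosage compensation complex binds the chromosome and raises its transcription. That complex is known for acetylation of histone H4 along gene bodies, while H3K4me3 marks promoters on X and autosomes alike. The arms 2L, 3L and 3R, of similar length and rich in genes, serve as the comparison. The arm 2R is not among them, so "the other arms" means these 3 throughout. Positions use FlyBase release 5. No gene annotation of that release was used here, so regions are named by position and no gene is assigned to them. The authors' score has no stated scale, so it was compared by differences and ranks, not by folds. Depth per library is unknown, since the lists hold no read counts.

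H3K4me3 regions on X were about as dense and as wide as on the other arms, and their scores were somewhat higher. In the combined list X held 42.5 regions per Mb, against 44.2 on 2L, 3L and 3R pooled. Over the 2 replicate lists the density averaged 52.5 ± 19.5 per Mb on X and 58.3 ± 27.0 per Mb on the other arms (SD, n = 2). The ratio of X to the other arms was 0.96 in the combined list; replicate 1 had 0.86 and replicate 2 had 0.99. Both replicates lay below 1, but an exact two-sided sign-flip permutation test over 2 replicates cannot give a p below 0.5, which is the value found. This test can therefore pass no difference between X and the other arms, and regions of one list are not replicates. The ratio came to 1.03 in the combined list when regions with scores under 0.5 were left out, and to 1.17 in replicate 1 when its list was reduced to its 4959 highest scores, as many as replicate 2 has regions. Both lists were cut on the score, and low scores were sparser on X, as given below. These 2 ratios are therefore not independent of the score and cannot test the direction in density.

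Density also differed among the 3 arms themselves. In the combined list 2L held 41.5, 3L 42.8 and 3R 47.6 regions per Mb, so X stood between 2L and 3L. In replicate 1 X had 66.3 regions per Mb, below 2L with 74.7, 3L with 78.0 and 3R with 79.2. In replicate 2 X had 38.7 regions per Mb, between 2L with 36.9 and 3L with 39.2, while 3R had 41.2. The low place of X among these arms was thus seen in replicate 1 and not in replicate 2.

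**Figure D1:**
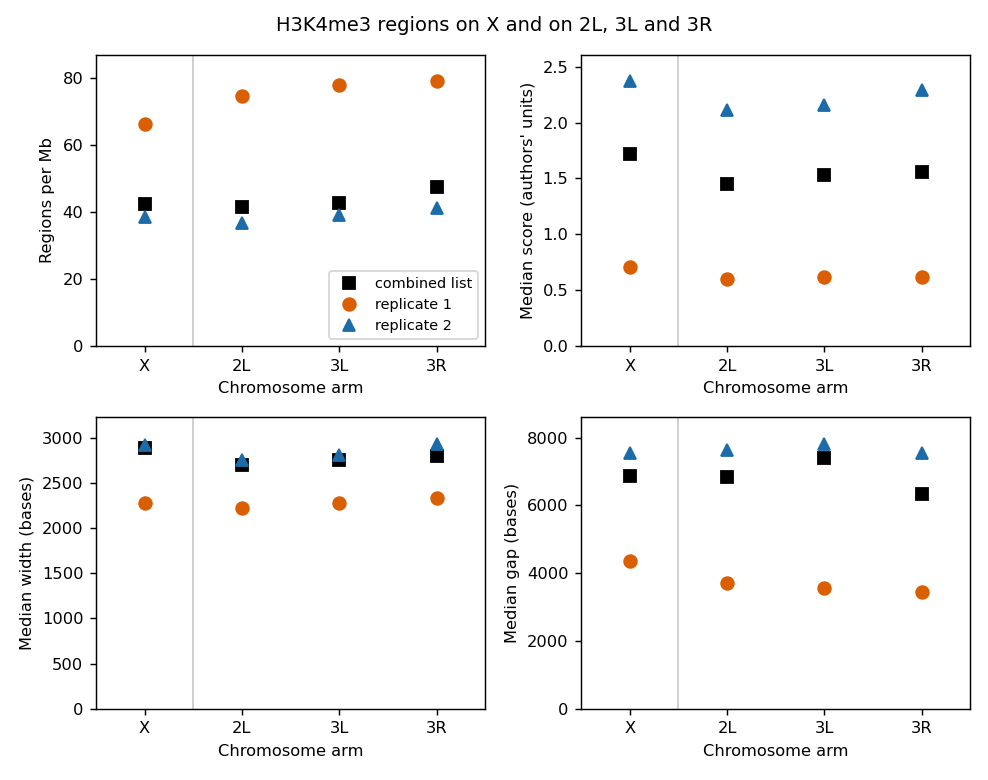
Region density, median score, median width and median gap (vertical axes) on X and on 2L, 3L and 3R (horizontal axis), with 1 point for each of the combined list and the 2 replicate lists. The median score on X is above that on each other arm in all 3 lists, while density and gap set X apart in replicate 1 alone.

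The score is where X stood above each of the 3 arms in each of the 3 lists. The median score in the combined list was 1.72 on X and 1.51 on 2L, 3L and 3R together, a difference of 0.21. In replicate 1 the medians were 0.71 on X and 0.61 on the other arms, and in replicate 2 they were 2.37 on X and 2.20 on the other arms. The mean difference over the replicates was 0.13 ± 0.05 (SD, n = 2; exact sign-flip permutation p = 0.5, the smallest possible). Set against single arms, the difference in the combined list ran from 0.17 against 3R to 0.27 against 2L. In replicate 2 it was 0.08 against 3R, and in replicate 1 it was 0.09 against 3R. Among the 4959 highest scores of replicate 1 the median on X lay 0.02 below that on the other arms. That list was cut on the score itself, so its median cannot test the direction.

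The size of the difference varied along the score range, and not in the same way in each list. The lower quartile of the combined scores was 0.65 on X and 0.51 on the other arms, while the 95th percentile was 2.99 on X and 2.92 on the other arms. The highest score on X was 3.45, below the highest on 2L, 3L and 3R, which was 3.68. In replicate 2 the lower quartiles were 1.16 on X and 1.02 on the other arms, and the 95th percentiles were 3.52 and 3.45 in the same order. In replicate 1 the lower quartiles were 0.57 on X and 0.50 on the other arms, and the 95th percentiles 1.70 on X and 1.58 on the other arms. The upper quartiles of replicate 1 lay farther apart, at 1.07 on X and 0.89 on the other arms. The 5th percentiles of the combined scores were close, at 0.27 on X and 0.22 on the other arms.

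Low-scoring regions were sparser on X, most of all in replicate 1. In replicate 1, regions with scores under 0.5 had a density of 8.25 per Mb on X and 20.1 per Mb on the other arms, a ratio of 0.41. The ratio was 0.41 against each of 2L, 3L and 3R taken singly. In replicate 2 the same class had 2.81 regions per Mb on X and 4.40 on the other arms, a ratio of 0.64. In the combined list it had 7.80 per Mb on X and 10.6 on the other arms, a ratio of 0.73. These values rest on 185 regions of X in replicate 1, 63 regions in replicate 2 and 175 combined regions. The scores of the lists may not share a scale, so a limit of 0.5 does not select the same part of each list. In replicate 1 this limit falls at the lower quartile of the other arms, 0.50, where that of X is 0.57. A small shift in score can therefore change this count a good deal.

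Above a score of 0.5 the ratio of densities lay on both sides of 1, and in replicate 1 it was higher in the higher classes. In replicate 1 the ratio of X to the other arms was 0.95 for scores of 0.5 to 1, 1.15 for scores of 1 to 2 and 1.36 for scores of 2 or more, the last from 29 regions on X and 72 on the other arms. In replicate 2 the ratios for these 3 classes were 1.05, 1.00 and 1.04. In the combined list they were 1.14, 0.90 and 1.08. High-scoring regions, with scores of 2 or more, made up 42.5% of the combined regions on X and 37.9% of those on the other arms. No test over regions was made of these ratios.

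**Figure D2:**
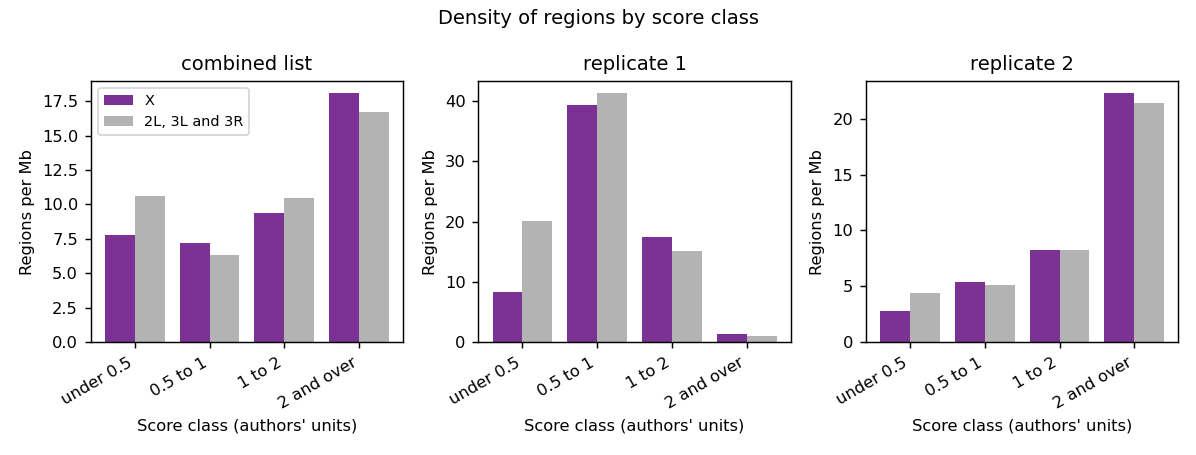
Number of regions per Mb (vertical axis) in 4 classes of the authors' score (horizontal axis), on X and on 2L, 3L and 3R together, in the combined list and in each replicate list. The gap between the bars is widest for scores under 0.5 in replicate 1, with 8.25 regions per Mb on X and 20.1 on the other arms.

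The low number of low scores in replicate 1 held along the whole of X. Over the 22 full bins of 1 Mb of X, replicate 1 had 4 to 12 regions with scores under 0.5 per bin, with a median of 8. Over the 74 full bins of 2L, 3L and 3R it had 3 to 33, with a median of 20.5 and a lower quartile of 16. All 22 bins of X lay below that lower quartile. In replicate 2 the medians were 3 per bin on X and 5 on the other arms, and in the combined list 9 on X and 10.5 on the other arms, with wide overlap of the ranges. Neighbouring bins of one library are not independent, and this count has no test.

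Region width on X was close to that elsewhere. The median width in the combined list was 2885.5 bases on X, with the middle 50% between 2323 and 4063 bases, and 2745 bases on the other arms. The median was 2279.5 bases on X and 2276 bases on the other arms in replicate 1, and 2919 bases on X and 2836 bases on the other arms in replicate 2. The mean difference over replicates was 43.2 ± 56.2 bases (SD, n = 2; exact sign-flip permutation p = 0.5), smaller than its own spread. Of the combined regions of X, 134 were at least 5 kb wide, or 14.1%, against 11.8% on the other arms. In replicate 1 the order was the opposite, with 8.68% on X and 10.4% on the other arms, and in replicate 2 the shares were 13.6% on X and 11.7% on the other arms.

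Wide regions on X had the higher scores, as on the other arms. Across the combined regions of X the Spearman rho of width and score was 0.74, and it was 0.75 on the other arms; regions of a list share their library. The median score on X was 0.33 for widths of 1 to 2 kb, 1.19 for 2 to 3 kb, 2.21 for 3 to 4 kb, 2.40 for 4 to 5 kb and 2.49 for 5 to 10 kb. On the other arms the medians for these widths were 0.27, 1.24, 2.16, 2.31 and 2.36. At like width, the difference between X and the other arms in replicate 1 was 0.31 for 3 to 4 kb, 0.35 for 4 to 5 kb and 0.30 for 5 to 10 kb, and 0.08 for both narrower classes. In replicate 2 it lay between -0.03 and 0.10 in these 5 classes.

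Bases covered gave no common direction in the replicates. The combined regions covered 14.3% of X and 14.2% of the other arms. Replicate 1 covered 18.8% of X and 23.0% of the other arms, while replicate 2 covered 13.3% of X and 13.0% of the other arms. The exact sign-flip permutation test gave p = 1 for the difference.

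Along X the regions were spread unevenly, with dense and sparse stretches next to each other. In the combined list the 22 full bins of 1 Mb held 24 to 62 regions, with a median of 45.5, against 10 to 73 with a median of 43 in the 74 bins of the other arms. The densest bin lay between 15 and 16 Mb, with 62 regions that covered 22.7% of its sequence. Replicate 1 had 78 regions there and replicate 2 had 59. Next in count were the bins between 2 and 3 Mb with 59 combined regions, between 1 and 2 Mb with 57 and between 16 and 17 Mb with 54. The fifth place was shared by the bins between 0 and 1 Mb, 6 and 7 Mb, and 13 and 14 Mb, with 51 regions each. The stretches from 0 to 3 Mb and from 15 to 17 Mb therefore held 5 of the 7 densest bins.

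The sparsest full bin lay between 4 and 5 Mb, with 24 combined regions. Next came the bins between 12 and 13 Mb with 25 regions, between 21 and 22 Mb with 27 and between 14 and 15 Mb with 29. The bins between 7 and 8 Mb and between 20 and 21 Mb shared the fifth lowest count, 32. The bin between 14 and 15 Mb lies beside the densest one. Taken in segments of 5 Mb, density was 44.8 regions per Mb from 0 to 5 Mb, 44.6 from 5 to 10 Mb, 38.0 from 10 to 15 Mb and 50.0 from 15 to 20 Mb. In the remaining 2.42 Mb, which end next to the centromere, it was 26.8 per Mb. Both replicates had their lowest density in this last segment, at 46.6 per Mb in replicate 1 and 23.5 in replicate 2.

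The replicates agreed on part of this profile. Across the 22 bins the counts of replicates 1 and 2 had a Pearson r of 0.54 and a Spearman rho of 0.51, a description over neighbouring bins of 2 libraries. Over the 74 bins of the other arms the values were 0.55 and 0.49. The combined counts followed replicate 2, with a rho of 0.95, more closely than replicate 1, with 0.61; the combined list was made from the same samples. The bin between 4 and 5 Mb was the sparsest of replicate 2, with 21 regions, yet had 75 in replicate 1, or 3.57 times as many. Between 18 and 19 Mb replicate 1 had 87 regions and replicate 2 had 31. Between 13 and 14 Mb the lists had 52 and 51 regions, the most even of the 22 bins. The ratio of replicate 1 to replicate 2 had a median of 1.60 over the bins of X and 1.89 over those of the other arms.

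**Figure D3:**
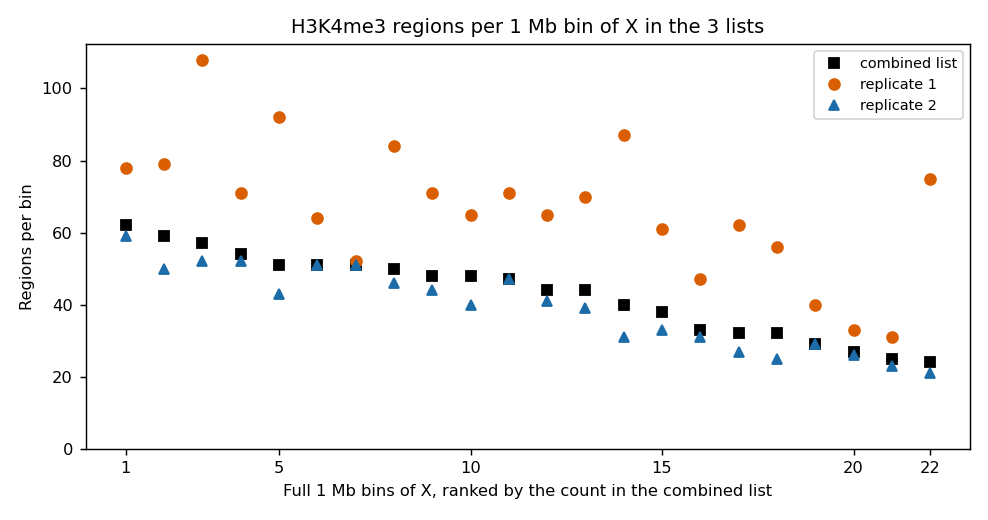
Number of regions (vertical axis) in each of the 22 full 1 Mb bins of X, ordered from most to fewest regions in the combined list (horizontal axis), with 1 point for each of the 3 lists. Replicate 2 stays close to the combined list throughout, whereas replicate 1 departs from it by the largest ratio in the last bin, with 75 regions against 24.

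Median score varied along X in a way that the number of regions did not follow. Per full bin the median combined score ran from 1.06 between 20 and 21 Mb to 2.20 between 6 and 7 Mb. Counts and median scores had a Spearman rho of 0.19 across the 22 bins, whereas median widths and median scores had 0.78. The bin between 11 and 12 Mb had the greatest median width, 3595 bases, and a median score of 2.16, with 47 regions. The bins between 1 and 2 Mb and between 2 and 3 Mb, both dense, had median scores of 1.93 and 1.68. The replicates' median scores per bin had a rho of 0.15, with each median taken over that replicate's own regions. The order of bins by these medians was thus largely unshared. At the matched positions of X described below, the scores of the replicates had a Spearman rho of 0.76.

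Gaps between neighbouring regions of X had a median of 6863 bases in the combined list, against 6892 bases on the other arms. In replicate 1 the median gap was 4346 bases on X and 3546 bases on the other arms, and in replicate 2 it was 7551 bases on X and 7697.5 bases on the other arms. The difference had opposite signs in the replicates (exact sign-flip permutation p = 1). At the long end, gaps of at least 50 kb numbered 111 on X and took up 11.4 Mb, or 50.7% of the chromosome, against 45.3% on the other arms. The share was 34.3% on X and 25.3% on the other arms in replicate 1, and 54.5% on X and 50.1% on the other arms in replicate 2. Among the 3 arms of the comparison, 2L came closest to X, with 49.7% in the combined list.

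The 5 longest gaps of X in the combined list ranged from 219 to 344 kb. The longest ran from 21502050 to 21845673, near the centromeric end, and held no region of replicate 1. Replicate 2 reached into it by 33 bases at its edges and had no region inside it. The second, from 7234667 to 7501686, was met by 9 regions of replicate 1 with scores of 0.48 to 1.26 and by none of replicate 2. Next in length, the gap from 12103095 to 12325826, was met by 9 regions of replicate 1 with scores of 0.52 to 0.78 and by none of replicate 2. In the fourth, from 22035174 to 22255224, replicate 1 had 11 regions with scores of 0.43 to 0.83, and replicate 2 overlapped it by 70 bases. The fifth, from 4982640 to 5201373, was met by 4 regions of replicate 1 with scores of 0.50 to 0.65, and replicate 2 overlapped it by 71 bases. Apart from overlaps of this size at their edges, these 5 stretches were also empty in replicate 2. Of the 5, 4 were met by regions of replicate 1. These counts include regions that cross an edge of a gap, so not all the scores belong to regions lying inside. The regions scored 1.26 and 0.78 also overlapped regions of replicate 2, scored 2.79 and 1.45. Replicate 2 met neither of those gaps, so these overlaps lie outside them. The lack of replicate 2 was nearly fixed in advance, since the combined list met 862 of its 867 regions on X. Of the 1486 regions of replicate 1 on X, the combined list met 867. Over all 111 gaps of at least 50 kb, 375 regions of replicate 1 had their midpoint inside, or 33.0 per Mb, and 6 regions of replicate 2 did. On the other arms the same count for replicate 1 was 46.1 per Mb. For replicate 2 it was 0.53 per Mb on X and 0.15 per Mb on the other arms.

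Called regions lay close to both ends of the assembled X, with support from both replicates at the centromeric end. The first combined region, from 9428, had a score of 0.57 and was met by neither replicate, and those starting at 11196 and 22945 were met by replicate 2 alone. The last ended at 22416924, which is 5.90 kb from the end of the sequence at 22422827. The last region, from 22413431, had a score of 2.86, and each replicate had a region there, scored 1.86 by replicate 1 and 3.25 by replicate 2. The first region of replicate 2 started at 11184 and that of replicate 1 at 55169.

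Most combined regions of X met a region in each replicate. The combined list was made from the same samples, so this support is not independent of it. Counting an overlap of at least 1 base, 747 of the 952 combined regions met a region of both replicates, or 78.5% (Wilson 95% interval 75.7% to 81.0%, counting error only). Over all sequences of the combined list the share was 77.7%, and on 2L, 3L and 3R it was 77.8% (76.3% to 79.2%), so support on X was near the background. Another 75 regions of X met replicate 1 alone (7.88%), 115 met replicate 2 alone (12.1%) and 15 met neither (1.58%). On 2L, 3L and 3R these shares were 10.1%, 10.5% and 1.59%. Regions of X with support from both were 3291 bases wide and scored 2.10 at the median. The medians were 0.37 and 1467 bases for regions met by replicate 1 alone, and 0.42 and 2033 bases for those met by replicate 2 alone. For the 15 met by neither they were 0.37 and 1126 bases.

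Support was higher at higher combined scores, which come from the same samples as the replicate lists. All 405 combined regions of X with a score of 2 or more were met by both replicates (Wilson 95% interval 99.1% to 100%), as were 1260 of 1263 on the other arms. Of the 116 with scores of 1.5 to 2, 115 were met by both. The shares were 88.4% of the 95 regions with scores of 1 to 1.5 and 66.5% of the 161 with scores of 0.5 to 1. Of the 175 regions under 0.5, 20.6% were met by both. On the other arms the shares in these last 3 classes were 94.9%, 76.7% and 25.3%. X lay below them in all 3. The Wilson intervals for scores of 0.5 to 1 were 58.9% to 73.3% on X and 72.7% to 80.3% on the other arms. The intervals overlap in all 3 classes, but such overlap does not test a difference, and no test was made. Of the 205 regions of X not met by both, 139 had a score under 0.5 and 12 a score of 1 or more. By kind, 62 of the 75 met by replicate 1 alone scored under 0.5. So did 65 of the 115 met by replicate 2 alone and 12 of the 15 met by neither. On the other arms these counts were 319 of 338, 231 of 349 and 50 of 53, so low scores made up more of their unsupported regions.

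**Figure D4:**
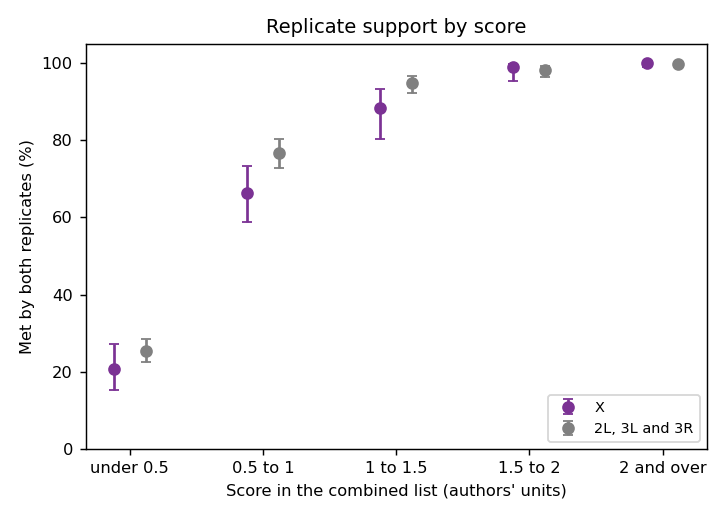
Share of combined regions met by both replicates (vertical axis, percent) in 5 classes of the score (horizontal axis), on X and on 2L, 3L and 3R together, with Wilson 95% intervals as bars. Under a score of 0.5 the shares are 20.6% on X and 25.3% on the other arms, and at scores of 2 or more they are 100% on X and 99.8% on the other arms.

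Seen from the replicates' own lists, 808 of the 1486 regions of replicate 1 on X met replicate 2, or 54.4% (Wilson 95% interval 51.8% to 56.9%), where the share over all sequences was 50.0%. On 2L, 3L and 3R it was 48.1% (46.8% to 49.4%). Per Mb, the regions of replicate 1 met by replicate 2 numbered 36.0 on X and 37.2 on the other arms, whereas those not met numbered 30.2 on X and 40.2 on the other arms. The lower density of X in replicate 1 thus lay mainly in regions that replicate 2 did not share. These unshared regions had a median score of 0.62 on X and 0.54 on the other arms. Of the 867 regions of replicate 2 on X, 749 met replicate 1, or 86.4%, against 87.3% over all sequences. The combined list met 862 of those 867 regions and 867 of the 1486 of replicate 1.

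At 745 positions on X a region of one replicate and a region of the other were each other's largest overlap. Replicate 1 scored these positions at a median of 1.04 and replicate 2 at 2.60. The lower score belonged to replicate 1 in 701 of the pairs, or 94.1%, against 90.8% of the pairs on the other arms. On 2L, 3L and 3R, with 2592 pairs, the medians were 0.91 in replicate 1 and 2.43 in replicate 2. Pearson's r of the scores was 0.72 on X and 0.68 on the other arms, and Spearman's rho was 0.76 on X and 0.73 on the other arms, across regions. Boundaries lay close together: the starts of a pair on X differed by a median of 200 bases and the ends by 196 bases. In 203 of the 745 pairs both ends lay within 200 bases of each other, or 27.2%, against 28.9% on the other arms. The Spearman rho of the widths was 0.71 on X and 0.64 on the other arms.

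**Figure D5:**
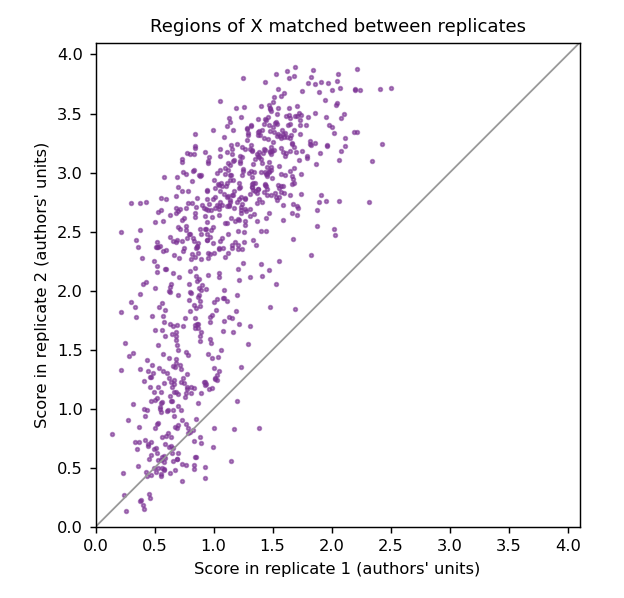
Score in replicate 2 (vertical axis) against score in replicate 1 (horizontal axis) for the 745 matched region pairs of X, 1 point per pair, with the line of equal scores. Of these pairs, 701 lie above the line, or 94.1%, with the lower score in replicate 1. On 2L, 3L and 3R the share was 90.8%.

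The 10 highest scores on X lay between 3.26 and 3.45, in 9 different bins of 1 Mb. All 10 regions were met by both replicates, and each met exactly 1 region in each replicate. Their scores ran from 1.53 to 2.50 in replicate 1 and from 3.71 to 3.89 in replicate 2. The highest was from 4432874 to 4436640, 3767 bases wide, with a combined score of 3.45; replicate 1 scored it 2.21 and replicate 2 scored it 3.88. This region lies in the sparsest bin of X. The second, from 15031348 to 15034359, was 3012 bases wide and scored 3.40, with 2.50 in replicate 1 and 3.72 in replicate 2. The third, from 1800322 to 1804961, scored 3.39, with 1.84 in replicate 1 and 3.87 in replicate 2.

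The next 7 followed closely in score. They started at 19413657 with 3.35, at 6187467 with 3.32, at 19470790 with 3.28, at 20120142 with 3.27, at 7785989 with 3.27, at 2501343 with 3.27 and at 11240257 with 3.26. Widths of the 10 ranged from 3012 to 7295 bases with a median of 4088.5, so the strongest regions were not the broadest. The 10 ranked between 8 and 36 among all regions of the combined list.

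Broad regions of X combined intermediate to high scores with a structure that differed between the lists. The 10 widest ran from 9485 to 17168 bases and scored 1.61 to 3.23. The widest, from 508429 to 525596, had a score of 2.53 and met 4 regions of replicate 1 and 2 of replicate 2. The next 2 by width were neighbours. That from 11480458 to 11495264, 14807 bases wide, had the lowest score of the 10, 1.61, and met 6 regions of replicate 1 and 1 of replicate 2. Its neighbour from 11462302 to 11476409, 14108 bases wide, scored 2.39 and met 2 regions of replicate 1 and 1 of replicate 2.

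Of the other 7 of the widest regions, 4 were matched by single regions. Those starting at 9047169 (12570 bases), 1765878 (10352 bases), 7823027 (10233 bases) and 16529347 (9485 bases) met 1 region in each replicate. The highest score among the 10 widest, 3.23, belonged to the region from 1765878 to 1776229. Those starting at 7949122 (9770 bases) and 15625292 (9750 bases) met 2 regions of replicate 1 and 1 of replicate 2. That starting at 19635346 (11333 bases) met 2 regions of each replicate. The median score of all 134 regions of X of at least 5 kb was 2.49. Of these, 133 were met by both replicates, 42 met more than 1 region of replicate 1 and 4 met more than 1 of replicate 2. Over combined regions of any width, 78.5% on X were met by both. More than 1 region of replicate 1 was met by 6.30% on X and 6.18% on the other arms. A wider region can meet more regions by its width alone, and no count is given here for broad regions of the other arms.

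Chains, in which neighbours lie less than 1 kb apart, were short on X. The combined list had 119 chains, which took in 253 regions, or 26.6% of the regions of X, against 24.1% on the other arms. No chain of X held more than 3 regions, while the longest held 4 on 2L, 5 on 3L and 6 on 3R. In replicate 2 the longest chain of X also held 3 regions, and in replicate 1 it held 6, against 8 on the other arms. The widest chain of 3, from 8033686 to 8053007, spanned 19.3 kb with scores of 2.41 to 2.99. The next by width ran from 1962023 to 1977428, from 15741697 to 15757054, from 1352955 to 1367850 and from 19585840 to 19600136. In 4 of these 5 chains all 3 regions were met by both replicates. In the chain from 1962023, which holds a region with a score of 0.34, 2 were.

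Regions of X carried by a single replicate had modest scores. The highest in the combined list was from 22945 to 25556, with a score of 1.56, which met replicate 2 alone, with a score of 2.09. Also met by replicate 2 alone were those from 16643939 to 16646790 (1.40), from 8334915 to 8337243 (1.36) and from 11196 to 13345 (1.29). The region from 10500455 to 10501690 (1.38) met replicate 1 alone. The highest score among regions met by neither replicate was 1.42, from 2510571 to 2511571, a region of 1001 bases that equals the least width in the combined list. The other 4 named by the same rule started at 9428, 5974461, 20358797 and 3834919, with scores of 0.44 to 0.57 and widths of 1027 to 1236 bases. Those widths lie below the narrowest region on X in either replicate's list, 1302 bases in replicate 1 and 1306 bases in replicate 2. Of these 10 regions, 3 lay at the distal tip of X, none of them ending beyond 25556.

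Among regions of the replicates' own lists that did not meet the other replicate, the highest scores on X in replicate 1 were 1.29 from 15569272 to 15573717, 1.25 from 10500396 to 10501785, 1.15 from 20603037 to 20607533, 1.13 from 353927 to 357020 and 1.12 from 2321077 to 2335000. The last was 13924 bases wide and met 3 combined regions. The first of them scored above 83.0% of the regions of replicate 1 on X. In replicate 2 the highest such scores were 2.09 from 22923 to 25564, 1.99 from 11184 to 13356, 1.87 from 8334883 to 8337280, 1.84 from 16643922 to 16646827 and 1.62 from 13071200 to 13073396. The first of these scored above 44.1% of the regions of replicate 2 on X. Unshared regions of replicate 1 thus reached into the upper part of its score range, while those of replicate 2 stayed below the median of theirs, 2.37.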

How the data were processed

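The deposited lists of H3K4me3 regions, on FlyBase release 5 per the file headers, were read for the 2 ChIP replicates and for the replicate set. Per the labels, Input 2 served for ChIP replicate 1 and Input 1 for ChIP replicate 2. Bowtie 0.12.7 is named in the submitters' processing notes. The region caller, its thresholds, the making of the combined list and the scale of the authors' score are, in the sources used here, not given; the deposited score is positive in enriched rows and negative in depleted rows. Depleted rows were left out. Densities used sequence lengths from the headers, and bins of 1 Mb took regions by midpoint. Regions were called shared at an overlap of 1 base or more. X was set against 2L, 3L and 3R within each list, with an exact sign-flip permutation test over the 2 replicates. Named regions follow fixed rules: the 10 highest scores and 10 greatest widths, and 5 regions, bins (with ties), gaps or chains of each other kind. The members, lists and rules were chosen with earlier results of these data known. The available gene table is of release 6 and was not used. Helpers were checked on simulated lists. Software was Matplotlib 3.10.9, SciPy 1.17.1, pandas 2.3.3, NumPy 2.4.6 and Python 3.11.15.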

Additional observations from a re-analysis of the deposited data

How the results depend on the processing

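Of 66 alternative values for 7 results, 34 moved by less than the replicate spread (or stayed in the Wilson interval), 19 moved further and 13 changed sign. The cause was not tested. The spread is the SD of the values of the 2 replicate lists, and these values are among the alternatives. A move smaller than this spread is therefore no test of stability. With scores of 0.5 or more, the density ratio of X was 1.03, the score difference 0.058, the width difference 21 bases, the gap difference -751.5 bases and the share met by both 91.5%. With the 4959 highest scores of replicate 1 they were 1.17, -0.024, -428 bases, -1494 bases and 65.1%, and the covered share differed by -0.33 percentage points. These cuts were made on the score itself, so the score differences after them cannot test the direction of the difference. The density ratios after them are likewise not independent of the score, since low scores were sparser on X. Against single arms, the density ratio was 1.02 on 2L, the score difference 0.27 on 2L, the covered share -0.96 points on 3R, and the gap difference 35 bases on 2L and 515 bases on 3R. Merging neighbours gave a score difference of 0.27 and a gap difference of 40 bases. Leaving out 3 Mb next to the centromere, chosen after seeing the data, gave a gap difference of 139 bases. Regions met by both replicates, also chosen later, gave a score difference of 0.13. The share met by both was 82.4% at widths of at least 1302 bases, 74.2% at an overlap of 50% of the combined region and 72.9% at 50% of both. Leaving out one replicate gave density ratios of 0.86 to 0.99, covered shares of -4.18 to 0.27 points, width differences of 3.5 to 83 bases, score differences of 0.10 to 0.17, gap differences of -146.5 to 800 bases, shares of 86.3% to 90.5% met by the remaining replicate, and 40.5 to 67.5 regions per bin. No paired analysis was possible because no regions were listed for the Input samples and their numbers do not match those of the ChIP samples.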

Other observations

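Within X, the densest stretch of 100 kb ran from 1900001 to 2000000, with 13 combined regions, 13 of replicate 1 and 9 of replicate 2. Those from 1200001 to 1300000, from 16200001 to 16300000 and from 19500001 to 19600000 held 12 combined regions each, and 12 of replicate 2 each. Of the 224 full stretches of 100 kb on X, 23 held no combined region (10.3%), against 9.15% on 2L, 3L and 3R. These counts were examined after their values were seen and have no test.

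One row of the combined list on X is typed as depletion and is not among the regions described. It runs from 14495424 to 14496975 with a score of -0.03. It meets no region of replicate 1 and an enriched region of replicate 2, 1672 bases wide with a score of 0.25.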
